A study of Mus musculus with 47 samples.

Results

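Ribosome biogenesis factors build the ribosome in and around the nucleolus, and 33 genes for such factors are described here out of the 24062 gene symbols counted in the study. They were chosen by symbol, from what the encoded proteins are known to do, with earlier results of these data known. All 33 were found in the table. By role, 5 belong to transcription of ribosomal DNA by RNA polymerase I (Polr1a, Polr1b, Rrn3, Ubtf, Tcof1) and 6 to small nucleolar ribonucleoproteins or their assembly (Fbl, Nop56, Nop58, Nolc1, Dkc1, Rrp9). A further 10 act on the small ribosomal subunit (Heatr1, Utp15, Utp20, Wdr43, Wdr75, Nop14, Noc4l, Nat10, Ddx10, Rrp12), 7 act on the large subunit (Bop1, Pes1, Wdr12, Nop2, Noc2l, Noc3l, Rrs1) and 5 act at several steps or link the nucleolus to other processes (Npm1, Ncl, Ddx21, Gnl3, Mybbp1a). The genes lie on 17 chromosomes, with Nop14 and Noc4l on chromosome 5 and Dkc1 on the X chromosome.

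RNA polymerase I copies the ribosomal DNA repeats into a long precursor, which is cut, trimmed and modified while ribosomal proteins and assembly factors join it. Box C/D particles built on Fbl, Nop56 and Nop58 methylate ribose groups of the precursor, and H/ACA particles built on dyskerin, the product of Dkc1, turn uridines into pseudouridines. Many genes of this group are known targets of the transcription factor Myc, and dividing cells of the intestinal crypt make many ribosomes, whereas mature enterocytes make fewer.

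The study sequenced RNA of mouse intestine and of intestinal organoids, which are epithelial cultures grown from stem cells, in 47 libraries. The labels give an age of 15 to 19 weeks for every library, organoids included. The 39 tissue libraries formed 13 groups of 3. Wild-type mucosa, adenomas of Apc Min mice and the uninvolved mucosa of such mice (here Min mucosa) were each taken on 4 backgrounds: C57BL/6 (B6), the consomic strain CSS C57BL/6 chr5 PWD (C5), its F1 with C57BL/6 (C5F1) and the C57BL/6xPWD F1 (B6xPWD). The parental strain PWD/Ph (PWD) was present as wild-type mucosa only. The Min allele is a germline truncation of the Wnt pathway tumour suppressor Apc, and it is carried by the adenomas, by the Min mucosa next to them and by all organoids. The consomic strain carries chromosome 5 of PWD/Ph on the C57BL/6 genome. The 8 organoid libraries formed 4 groups of 2: B6 and C5 cultures without treatment (control) or with 5-aza-cytidine (AZA), a cytidine analogue that is built into nucleic acids and traps DNA methyltransferases. The dose and duration of AZA, the sex of the mice and the sampled stretch of intestine are not given in the sources used here. The labels do not say whether replicates are different animals or different cultures. The p-values therefore describe the spread among these libraries, which may in part be technical.

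Reads counted in genes ranged from 2726505 to 20070696 per tissue library and from 4389898 to 8373764 per organoid library. Between 16.4 and 72.7% of the tissue counts and between 0.760 and 1.61% of the organoid counts fell on the precursor gene Rn45s, with the highest share in replicate 1 of C5F1 Min mucosa. Ribosomal RNA had been depleted before sequencing, and the amount of Rn45s RNA and the efficiency of depletion cannot be told apart here. The precursor is cut into mature ribosomal RNA, so counts on Rn45s may come from either and do not measure the precursor alone. The 33 genes together received 1073 to 36269 counts per tissue library (median 4636) and 20523 to 64642 per organoid library. The shallowest of these libraries for the 33 genes was again replicate 1 of C5F1 Min mucosa, with 1073 counts, and leaving it out gave 18 called genes in C5F1 adenoma against 19 with it. Epithelial markers were present in every tissue group, with summed levels of 3635 to 7420 CPM (counts scaled to library size) on the 4 backgrounds. Fewer cells of a type and less RNA per cell cannot be told apart in bulk samples such as these.

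Per kilobase of exon, Ddx21, an RNA helicase that couples RNA polymerase I transcription to processing, had the highest level of the 33 genes in Min mucosa, at 15.5 CPM per kilobase. Npm1, the nucleolar chaperone nucleophosmin, followed at 13.2 and Bop1, a member of the PeBoW complex of the large subunit, at 12.4 CPM per kilobase. Noc2l (11.2) and Ubtf (10.3) came next on this scale. The lowest levels were those of Fbl, the box C/D methyltransferase fibrillarin, at 0.877 and of Wdr12, another PeBoW member, at 0.464 CPM per kilobase. The order was different in control organoids, where Npm1 stood at 154.7, Ncl at 89.8 and Ddx21 at 54.9 CPM per kilobase, while Bop1 stood at 5.22. The length used was that of all annotated exons merged, whichever transcripts were expressed. It was 11955 bases for Wdr12, 10188 for Ncl and 2665 for Npm1, so the order of the genes depends on the annotation too. These levels were scaled over all 47 libraries, whereas the CPM values of single genes below were scaled within tissue or within organoids unless stated otherwise.

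Adenomas had higher levels of nearly all ribosome biogenesis factors than Min mucosa. Averaged over the 4 backgrounds, 31 of the 33 genes were higher in adenoma, none was lower, and Ncl and Ubtf did not pass the test (edgeR quasi-likelihood test, Benjamini-Hochberg adjusted p under 0.05 over 13657 genes). Of all genes tested, 23.7% were called higher in the same comparison. The median log2 change was 0.65 over the 33 genes and 0.01 over all genes, and the single values ran from 0.08 for Ubtf to 1.01 for Rrs1. The summed level of the 33 genes was 618.7 CPM in the lowest, 733.2 CPM in the median and 814.6 CPM in the highest of the 12 Min mucosa libraries. In the 12 adenoma libraries it was 918.5, 1070 and 1231 CPM, so the lowest adenoma stood above the highest Min mucosa. In wild-type mucosa of the same backgrounds the sum ran from 681.8 to 762.7 CPM, within the range of Min mucosa.

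**Figure D1:**
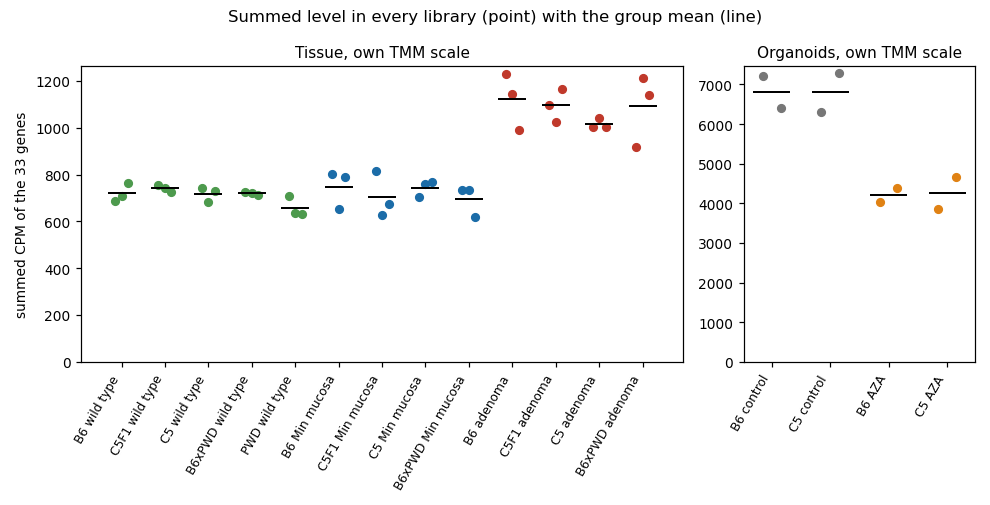
Summed level of the 33 ribosome biogenesis genes in each library, in CPM on linear axes, with tissue groups in one panel and organoid groups in the other, and one point per library. Adenoma libraries lie between 918.5 and 1231 CPM and all Min mucosa libraries at or below 814.6 CPM, while the AZA organoids lie below the control organoids.

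Genes of the large subunit were all higher in adenoma, 7 of 7, with a median log2 change of 0.65. Rrs1, a factor that helps bring the 5S ribonucleoprotein into the large subunit precursor, had 4.10 CPM in the lowest, 6.24 in the median and 8.04 in the highest Min mucosa library. Its adenoma values were 8.56, 12.8 and 18.8 CPM, and wild-type mucosa ran from 3.80 to 9.39 CPM. All 12 adenoma libraries therefore exceeded all 12 Min mucosa libraries, and Rrs1 rose 2.01-fold (log2 change 1.01 ± 0.13 SE, edgeR adjusted p = 1.49e-07), the largest change of the 33 genes. The smallest change of this role was that of Noc3l, a nucleolar complex protein, with 4.65, 8.195 and 12.9 CPM in Min mucosa and 6.61, 10.6 and 13.5 CPM in adenoma. Most of these libraries overlapped, and the rise was 1.32-fold (log2 change 0.40 ± 0.13 SE, edgeR adjusted p = 0.0134). The PeBoW complex, whose 3 proteins mature the 5.8S and 28S RNA ends, rose as a whole, with log2 changes of 0.71 for Wdr12, 0.45 for Pes1 and 0.44 for Bop1. Noc2l, a partner of Noc3l, stood at 0.70 and Nop2, a 28S RNA methyltransferase, at 0.65.

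Among the genes that act at several steps, 4 of 5 rose, with a median log2 change of 0.73. Mybbp1a, a nucleolar protein that binds Myb and takes part in ribosomal RNA synthesis, had 32.6, 44.6 and 65.3 CPM as the lowest, median and highest values in Min mucosa. In adenoma it had 67.8, 81.4 and 110.9 CPM. The ranges did not meet, and the gene rose 1.80-fold (log2 change 0.85 ± 0.10 SE, edgeR adjusted p = 9.32e-09). Ncl encodes nucleolin, an abundant nucleolar RNA-binding protein, and had 27.9, 63.4 and 137.4 CPM in Min mucosa and 39.5, 88.6 and 176 CPM in adenoma. Its libraries were spread widely in both tissues, and the change of 0.52 ± 0.23 (SE, log2) did not pass the test (edgeR adjusted p = 0.0616). With the replicate number as a block, which pairs adenoma and Min mucosa here, the Ncl change was 0.57 and passed (edgeR adjusted p = 0.00662). Ncl passed in 8 alternative settings, this one included, with log2 changes of 0.52 to 0.73. Among them was the fit of only the groups compared (edgeR adjusted p = 0.0286). Npm1 rose by a log2 change of 0.74, Gnl3, the nucleolar GTPase nucleostemin, by 0.73 and Ddx21 by 0.65.

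Of the RNA polymerase I genes, 4 of 5 rose, with a median log2 change of 0.63. Polr1b, the second largest subunit of the enzyme, had 4.48, 7.58 and 13.7 CPM in Min mucosa and 7.89, 14.6 and 18.1 CPM in adenoma. The upper Min mucosa values reached into the adenoma range, and the gene rose 1.74-fold (log2 change 0.79 ± 0.14 SE, edgeR adjusted p = 3.23e-05). Polr1a, the largest subunit, rose by a log2 change of 0.63 with no overlap between the 12 adenoma and 12 Min mucosa libraries. Rrn3, the initiation factor that recruits the polymerase to ribosomal DNA, rose by 0.49 and Tcof1, the nucleolar protein treacle, by 0.74. Ubtf, the architectural factor UBF that keeps ribosomal DNA open, had 52.4, 62.4 and 66.3 CPM in Min mucosa and 54.6, 63.4 and 79.9 CPM in adenoma. Both ranges covered nearly the same values, and the log2 change of Ubtf was 0.08 ± 0.07 (SE, edgeR adjusted p = 0.331). Ubtf passed the test only when library totals were taken without Rn45s, with a log2 change of 0.28, under a scaling in which the median of all genes was 0.21.

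All 10 genes of the small subunit rose, with a median log2 change of 0.60. Wdr75, a component of the t-UTP complex that binds the nascent precursor, had 7.91, 11.5 and 13.4 CPM in Min mucosa and 13.4, 20.4 and 26.1 CPM in adenoma. The lowest adenoma value lay just above the highest Min mucosa value, and the gene rose 1.82-fold (log2 change 0.87 ± 0.11 SE, edgeR adjusted p = 1.58e-07). Nat10, the acetyltransferase that modifies cytidines of 18S RNA, had 10.99, 16.4 and 20.97 CPM in Min mucosa and 14.6, 19.5 and 27.6 CPM in adenoma. The ranges overlapped over most of their length, and the rise was 1.18-fold (log2 change 0.24 ± 0.09 SE, edgeR adjusted p = 0.0363). Its call was lost with DESeq2 (adjusted p = 0.0503) and with the replicate block (edgeR adjusted p = 0.0644, and 0.106 with adenoma and Min mucosa alone). The call was lost as well without a filter on low counts (edgeR adjusted p = 0.0599) and with only the groups compared (edgeR adjusted p = 0.0721). It was also lost without any 1 of 16 libraries in turn, with the largest adjusted p, 0.178, without replicate 3 of B6xPWD adenoma. The t-UTP members Heatr1, Utp15 and Wdr43 rose by log2 changes of 0.57, 0.62 and 0.67. Rrp12 stood at 0.74, Noc4l at 0.71, Utp20 and Nop14 at 0.53 each, and the helicase gene Ddx10 at 0.29.

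All 6 genes of the small nucleolar ribonucleoproteins rose, with a median log2 change of 0.66. Nop56, a core box C/D protein, had 13.7, 19.0 and 24.0 CPM in Min mucosa and 21.1, 35.8 and 51.8 CPM in adenoma. Only the lower adenoma values reached into the Min mucosa range, and the gene rose 1.95-fold (log2 change 0.96 ± 0.10 SE, edgeR adjusted p = 2.46e-09). Dkc1 had 13.7, 19.7 and 23.5 CPM in Min mucosa and 18.1, 25.7 and 33.6 CPM in adenoma, a rise of 1.34-fold (log2 change 0.43 ± 0.10 SE, edgeR adjusted p = 6.04e-04). Rrp9, the protein of the U3 particle that is needed for 18S RNA, rose by a log2 change of 0.82. Fbl rose by 0.74, Nolc1, a chaperone of these particles, by 0.58 and Nop58, the partner of Nop56, by 0.54.

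**Figure D2:**
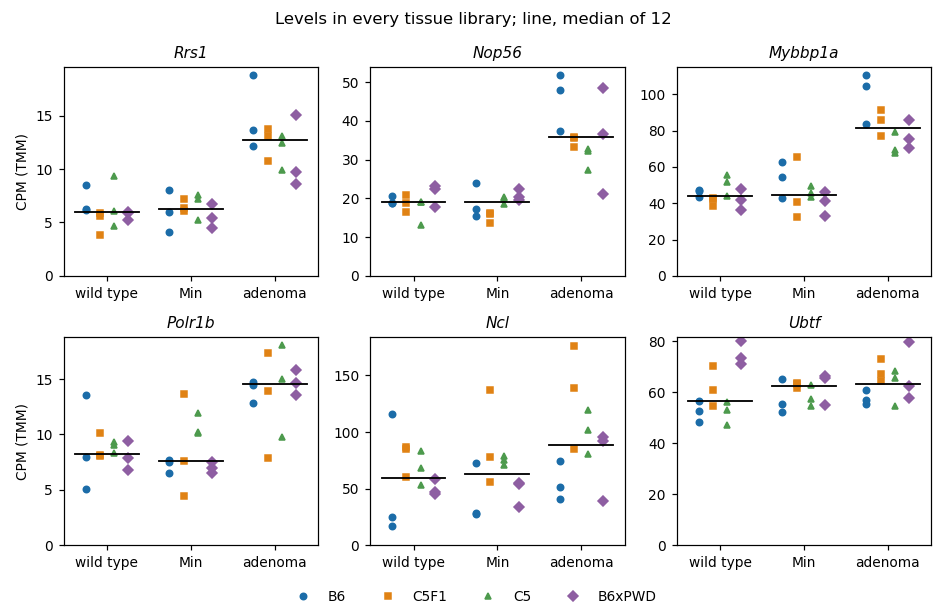
CPM of Rrs1, Nop56, Mybbp1a, Polr1b, Ncl and Ubtf in every library of wild-type mucosa, Min mucosa and adenoma on the 4 backgrounds, one panel per gene, one point per library. Rrs1 and Mybbp1a show no overlap between adenoma and Min mucosa, Ncl is spread over both tissues, and Ubtf lies at nearly the same level in both (medians 62.4 and 63.4 CPM).

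The separation of single libraries was also counted, without a model. For 6 of the 33 genes, Polr1a, Heatr1, Wdr75, Rrs1, Ddx21 and Mybbp1a, all 12 adenoma libraries lay above all 12 Min mucosa libraries, and 1.69% of all genes tested did so. Within each of the 4 backgrounds taken alone, all 3 adenoma libraries exceeded all 3 Min mucosa libraries for 9 genes, those 6 and Nolc1, Nop2 and Gnl3, against 4.19% of all genes.

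The promoter windows of some members hold the letters CACGTG, the palindromic E-box that Myc and its partner Max are known to bind. Such windows are shown as sequence, and whether the E-box goes with the change in adenoma was not tested. The windows below belong to the 4 holders with the largest adenoma changes and come from RefSeq (GRCm38.p6), read 5′ to 3′ along the gene with the E-box in capitals. The stretch of Mybbp1a lies at chr11:72441347-72441376 on the plus strand, that of Wdr43 at chr17:71616220-71616249 on the plus strand, that of Nop2 at chr6:125131776-125131875 on the plus strand and that of Utp20 at chr10:88826765-88826794 on the minus strand.
Mybbp1a: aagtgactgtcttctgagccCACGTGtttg
Wdr43: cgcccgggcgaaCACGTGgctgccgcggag
Nop2: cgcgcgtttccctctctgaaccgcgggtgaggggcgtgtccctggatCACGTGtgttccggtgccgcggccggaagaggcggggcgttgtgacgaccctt
Utp20: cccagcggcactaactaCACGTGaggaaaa
Counted from the annotated start, the E-box begins at base 41 in Mybbp1a, 18 in Wdr43 and 38 in Utp20, downstream of the start, and at base -60 in Nop2, upstream of it. CACGTG reads the same on both strands and was searched in the 300 bases around each start. It was found for 6 of the 27 members with such a window (22.2%), the other 2 being Rrn3 and Pes1, and for 8.1% of 27025 genes. Counted by window, the share was 17.1% for the members' 35 windows. It was 8.4% among windows in the members' GC range of 45.3 to 82.3%. That range kept 25153 of 32851 windows, so it matches GC content only loosely. The median GC content was 59.7% in the members' windows and 52.7% in all. A match of 6 letters is a description of the sequence and no evidence of binding.

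Other genes of the pathway were mostly higher in adenoma too. Of 124 other ribosome biogenesis genes tested, 85 were higher in adenoma and 1 was lower, with a median log2 change of 0.40. The counts were 39 higher of 47 for large subunit factors, 28 of 41 for small subunit factors, 8 of 12 for small nucleolar ribonucleoproteins, 7 of 12 for the exosome and its cofactors, and 3 of 12 for RNA polymerase I genes. Mrto4, a large subunit factor, had the largest rise of its list (1.02 ± 0.19, SE, log2), as did Gar1 of the H/ACA particles (1.02 ± 0.15), Bysl of the small subunit (0.93 ± 0.15), Polr1e of RNA polymerase I (0.78 ± 0.12) and Exosc1 of the exosome (0.65 ± 0.15). The only fall was that of Sbds, which releases Eif6 from the nearly finished large subunit (log2 change -0.34 ± 0.09 SE, edgeR adjusted p = 0.00293). Ribosomal protein genes rose in 12 of 62 cases, with a median log2 change of 0.25. Of all genes tested, 23.7% were higher. The counts of the RNA polymerase I list and of the ribosomal protein genes were near or below that share. Small nucleolar RNA genes inside the spans of the 33 genes gave 0 calls of 8 tested in adenoma. Of the 10 such genes counted, 4 overlap annotated exons of their hosts on the same strand: Snord57 in Nop56, Snora75 in Ncl, and Snord69 and Snord19 in Gnl3.

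Other measures moved with this comparison. Myc had 11.6, 18.4 and 28.8 CPM as the lowest, median and highest values in Min mucosa and 22.0, 31.0 and 48.2 CPM in adenoma (log2 change 0.80 ± 0.16 SE, edgeR adjusted p = 9.86e-05). Of the 10 genes of its network, Mycl and Mycn also rose (log2 changes 1.37 and 1.17), Max, Mlx, Mxd1 and Mxi1 fell (-0.66, -0.58, -0.78 and -0.57), and Mxd3, Mxd4 and Mnt did not pass. The median of the network was -0.02, and its sums ran from 612.5 to 903.3 CPM in Min mucosa and from 399.9 to 719.6 CPM in adenoma. Of 20 cell cycle genes, 17 rose and none fell (median 0.54), with summed levels of 542.6 to 918.3 CPM in Min mucosa and 749.9 to 1123 CPM in adenoma. Enterocyte markers fell in 15 of 19 cases, from sums of 14250 to 34220 CPM to sums of 3800 to 17980 CPM. Paneth cell markers fell in 6 of 8 cases, smooth muscle markers in 10 of 10 cases (136.3 to 2508 CPM in Min mucosa, 58.1 to 1101 CPM in adenoma) and immune markers in 6 of 13 cases. Fibroblast markers rose in 4 of 8 cases and none fell, with sums of 331.9 to 517.4 CPM in Min mucosa and 685.5 to 860.9 CPM in adenoma of B6, and 264.2 to 451.8 CPM and 569.4 to 743.5 CPM in C5F1. Over the 4 backgrounds the fibroblast sums overlapped, at 229.8 to 607.0 CPM and 196.7 to 860.9 CPM. Of 8 goblet cell markers 1 rose and 4 fell, of 7 proximal intestine markers 1 rose and 2 fell, and of 6 endothelial markers 1 rose. Of 3 distal intestine markers tested 1 fell, with sums of 909.5 to 5255 CPM in Min mucosa and 344.4 to 2235 CPM in adenoma. Of 7 general epithelial markers 1 rose and 1 fell. Rn45s, whose counts may hold precursor and mature RNA, differed by a log2 value of 0.05 ± 0.37 (SE, edgeR adjusted p = 0.935). The part of cell composition in the rise of the 33 genes was not tested.

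Split by background, the rise was seen on each of the 4 backgrounds in size, and the number of genes past the test differed. In B6, 16 of the 33 genes were higher in adenoma (13% of all genes tested), in C5F1 19 (10.9%), in B6xPWD 16 (9.43%) and in C5 2 (2.59%), with none lower. The median log2 changes were 0.61, 0.69, 0.68 and 0.43 in the same order, and the only value below 0 among all of them was that of Ddx10 in B6xPWD, -0.02. At an unadjusted p under 0.05, 24, 25, 27 and 18 genes were higher in the same order, where 18.5%, 17%, 16.6% and 8.17% of all genes were. Counted by library, all 3 adenomas exceeded all 3 Min mucosa libraries for 20 genes in B6 (21.2% of all genes), 27 in C5F1 (21.3%), 18 in B6xPWD (13%) and 25 in C5 (12.6%). Of the 33 genes, 2 were called higher on all 4 backgrounds (2.11% of all genes), 8 on exactly 3 (3.24%) and 8 on none (81.4%).

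Ddx21 and Gnl3 were the 2 genes called on all 4 backgrounds, and the only ones called in C5. Ddx21 had 67.5, 73.7 and 68.7 CPM in the Min mucosa and 111.5, 103.6 and 103.2 CPM in the adenomas of C5 (log2 change 0.60 ± 0.15 SE, edgeR adjusted p = 0.021). Gnl3 had 15.4, 12.5 and 13.1 CPM in the Min mucosa and 22.5, 17.5 and 26.3 CPM in the adenomas of C5 (log2 change 0.70 ± 0.20 SE, edgeR adjusted p = 0.0492). For both genes each adenoma of C5 was above each Min mucosa library. Leaving out any 1 of the 6 libraries ended the call of Ddx21, with edgeR adjusted p between 0.0566 (without Min mucosa replicate 2) and 0.14 (without Min mucosa replicate 1). Leaving out any 1 other than adenoma replicate 2 ended the call of Gnl3, with edgeR adjusted p between 0.0895 (without Min mucosa replicate 1) and 0.285 (without adenoma replicate 3). At most 1 of the 33 genes was then called. With the replicate block 4 genes were called in C5, where 387 of 13657 genes were higher and 50 lower. Gnl3 was not among the 4 (edgeR adjusted p = 0.056).

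In B6, Nop56 had 24.0, 15.5 and 17.3 CPM in Min mucosa and 48.0, 51.8 and 37.3 CPM in adenoma (log2 change 1.27 ± 0.20 SE, edgeR adjusted p = 1.28e-05). Rrs1 had 8.04, 4.10 and 5.94 CPM against 12.2, 13.7 and 18.8 CPM (log2 change 1.28 ± 0.25 SE, edgeR adjusted p = 3.13e-04). Every B6 adenoma was above every B6 Min mucosa library for both genes. Polr1a (0.72 ± 0.15) and Mybbp1a (0.90 ± 0.19) completed the 4 smallest adjusted p-values of B6.

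In C5F1, Polr1a had 20.5, 21.5 and 24.5 CPM in Min mucosa and 47.9, 39.3 and 40.2 CPM in adenoma (log2 change 0.92 ± 0.15 SE, edgeR adjusted p = 5.62e-05). Wdr75 had 10.6, 11.7 and 9.97 CPM against 21.8, 22.4 and 22.1 CPM (log2 change 1.03 ± 0.23 SE, edgeR adjusted p = 0.00144). The adenoma libraries were close to each other and far above the Min mucosa for both genes. Nop56 (1.16 ± 0.21) and Mybbp1a (0.92) were the other 2 with the smallest adjusted p-values. The C5F1 count fell from 19 to 9 without Min mucosa replicate 3, to 10 without adenoma replicate 3 and to 12 without Min mucosa replicate 2.

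In B6xPWD, Ddx21 had 71.6, 61.1 and 62.9 CPM in Min mucosa and 89.9, 122 and 125 CPM in adenoma (log2 change 0.78 ± 0.15 SE, edgeR adjusted p = 6.18e-04). Heatr1, a t-UTP protein, had 38.8, 36.5 and 31.3 CPM against 47.8, 59.7 and 63.9 CPM (log2 change 0.68 ± 0.15 SE, edgeR adjusted p = 0.00212). Replicate 1 was the lowest of the B6xPWD adenomas for both genes, and for Nop56 as well, at 21.1 CPM against 36.5 and 48.4 CPM. Mybbp1a (0.94 ± 0.19) and Gnl3 (0.88 ± 0.20) were the other 2 with the smallest adjusted p-values. The B6xPWD count fell from 16 to 8 without Min mucosa replicate 3 and to 10 without adenoma replicate 2 or replicate 3. It was 5 when only the B6xPWD adenoma and Min mucosa libraries were fitted, where 372 of 11615 genes were higher and 327 lower. In that fit Heatr1 (adjusted p = 0.0573) and Gnl3 (adjusted p = 0.0576) did not pass.

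**Figure D3:**
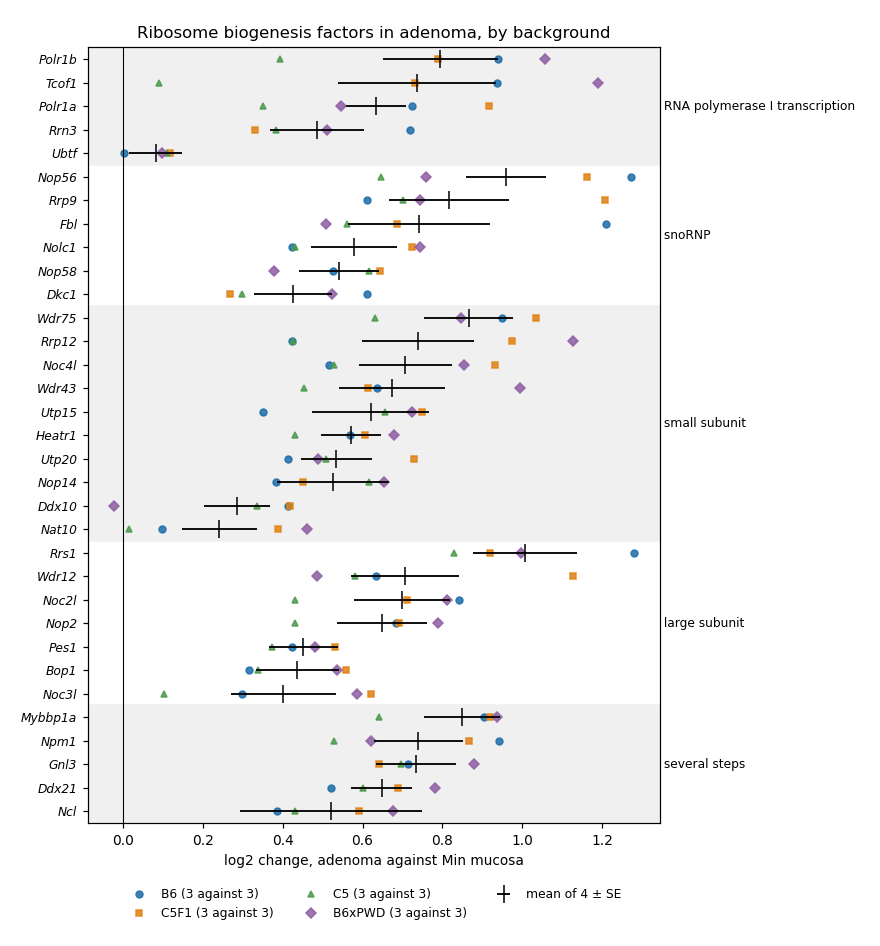
Fitted log2 change of each of the 33 genes in adenoma against Min mucosa (horizontal axis), with coloured points for the 4 backgrounds, a bar for their mean ± SE, and genes ordered by role (snoRNP, small nucleolar ribonucleoproteins). Nearly all points lie right of 0, with medians from 0.43 in C5 to 0.69 in C5F1.

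A smaller number of calls on 1 background did not amount to a shown difference between backgrounds. The test of the difference itself, relative to B6, called 0 of 33 genes for C5F1, C5 and B6xPWD (0.0%, 0.11% and 0.63% of all genes), with edgeR and with DESeq2. At an unadjusted p under 0.05 it gave 0, 1 and 0 genes, against 2.90%, 9.35% and 11.8% of all genes. The smallest adjusted p in C5 was 0.45, for Nop56, whose rise was smaller than in B6 by a log2 difference of -0.63 ± 0.28 (SE, 95% interval -1.17 to -0.08 before adjustment). In C5F1 it was 1.0 for Bop1 (0.24), and in B6xPWD 0.485 for Ddx10 (-0.44).

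No difference between Min mucosa and wild-type mucosa was detectable in these genes at this depth. Averaged over the 4 backgrounds, 0 of the 33 genes passed (0.00732% of all genes, edgeR), DESeq2 gave 0 as well, and 1 gene had an unadjusted p under 0.05, as did 7.43% of all genes. The median log2 change was 0.01 for the 33 genes, and the values ran from -0.31 to 0.29. The gene with the smallest adjusted p was Bop1, at a log2 change of -0.23 ± 0.10 (SE, edgeR adjusted p = 0.649), and its libraries ran from 19.7 to 55.5 CPM in Min mucosa and from 28.6 to 49.5 CPM in wild-type mucosa. Both comparisons share the Min mucosa libraries, so their values are not independent of each other.

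Between strains, the wild-type mucosa differed in few of the 33 genes, and the calls were at or below the share of all genes. Against B6, 0 genes passed in C5F1 (0.022% of all genes, 0 with DESeq2), where Nop14, a factor of the 18S pathway, had the smallest adjusted p (log2 difference 0.84, edgeR adjusted p = 0.291). In C5 0 genes passed (1.47% of all genes, 0 with DESeq2), with Polr1a at 0.43 (edgeR adjusted p = 0.151). At an unadjusted p under 0.05 there was 1 gene in C5F1 (11.5% of all genes) and 4 in C5 (15.9% of all genes). Without replicate 3 of B6 wild-type mucosa, 1 gene passed in C5F1 and 2 passed in C5. In B6xPWD 2 genes passed (9.6% of all genes) and in PWD 4 genes (18.7%). These strain comparisons all share the 3 B6 libraries.

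Ubtf had 48.4, 52.6 and 56.7 CPM in B6 and 80.1, 71.3 and 73.3 CPM in B6xPWD wild-type mucosa. All 3 B6xPWD values were above all B6 values, and Ubtf was higher by a log2 difference of 0.52 ± 0.14 (SE, edgeR adjusted p = 0.0149). Its PWD values, 46.7, 55.1 and 47.1 CPM, lay at the level of B6. The Ubtf call was lost with totals without Rn45s (adjusted p = 0.118), and without replicate 1 of either group or replicate 2 of B6, with adjusted p up to 0.104. Utp15, which belongs to the t-UTP complex, had 15.8, 14.4 and 5.10 CPM in B6, 6.26, 7.90 and 4.61 CPM in B6xPWD and 5.83, 9.37 and 4.56 CPM in PWD. Replicate 3 of B6 lay with the other strains, and the log2 differences of Utp15 were -1.0 ± 0.31 in B6xPWD (edgeR adjusted p = 0.0381) and -0.88 ± 0.31 in PWD (edgeR adjusted p = 0.0398). Without replicate 1 of B6 these adjusted p-values were 0.183 and 0.22.

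Rrn3 had 16.4, 10.1 and 18.1 CPM in B6 and 32.0, 31.0 and 22.8 CPM in PWD wild-type mucosa. Each PWD library was above each B6 library, and Rrn3 was 1.98-fold higher in PWD (log2 difference 0.98 ± 0.24 SE, edgeR adjusted p = 0.00435). Without replicate 2 of B6, the lowest of that group, its adjusted p was 0.0505. Fbl had 0.754, 2.08 and 3.97 CPM in B6 and 0.761, 0.288 and 0.607 CPM in PWD. Both groups held few counts, as low as 2 in a library, and the lowest B6 value lay within the range of PWD, although the fitted difference was 3.59-fold lower in PWD (log2 difference -1.84 ± 0.56 SE, edgeR adjusted p = 0.0203). The Fbl call was lost without replicate 2 of PWD (adjusted p = 0.183), replicate 2 of B6 (0.114) or replicate 3 of B6 (0.0619). Gnl3 had 17.03, 17.3 and 19.8 CPM in B6 and 12.2, 10.7 and 11.8 CPM in PWD, with no overlap (log2 difference -0.63 ± 0.21 SE, edgeR adjusted p = 0.034). Its call was lost without any 1 of the 6 libraries, with adjusted p between 0.0518 and 0.136. When only the B6 and PWD libraries were fitted, 0 of the 33 genes passed, where 557 of 11272 genes were higher and 477 lower. Fbl was not among the genes tested in that fit. Without replicate 2 of B6, 0 of the 33 passed. With totals without Rn45s 10 passed, where 749 of 13564 genes were higher and 2351 lower. The median log2 difference of all genes was then -0.27. In the same comparison of PWD with B6, 7 of 19 enterocyte markers were higher and 4 of 8 Paneth cell markers lower. Of 7 proximal intestine markers 2 were higher in PWD, with sums of 63.9 to 1988 CPM in B6 and 1064 to 7764 CPM in PWD. Distal intestine markers summed to 86.1 to 1800 CPM in B6, to 2.16, 8.62 and 4969 CPM in PWD and to 2734 to 6500 CPM in B6xPWD, where each library was above each of B6. None of the 3 distal markers tested passed in either comparison, and the part of these markers in the strain differences of the 33 genes was not tested.

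**Figure D4:**
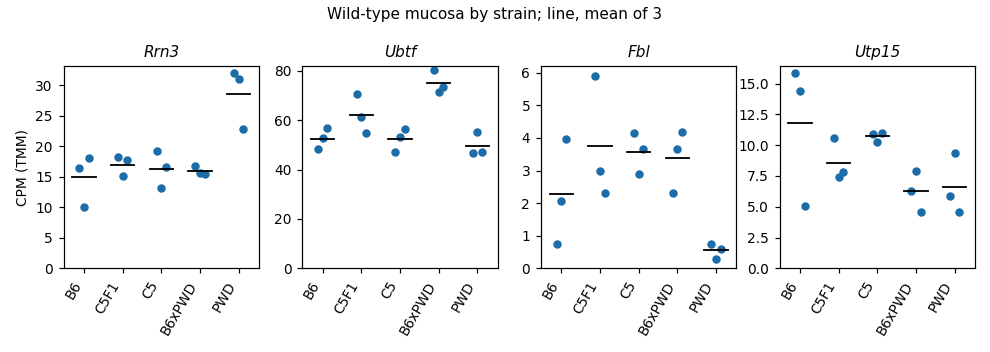
CPM of Rrn3, Ubtf, Fbl and Utp15 in wild-type mucosa of the 5 strains, one point per library, 3 libraries per strain. Rrn3 is higher in each PWD library (22.8 to 32.0 CPM) than in each B6 library, and Ubtf is higher in each B6xPWD library (71.3 to 80.1 CPM) than in each B6 library.

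In adenomas, the strain differences were again few. Between C5F1 and B6 adenomas 0 genes passed (0.483% of all genes, 0 with DESeq2), with 4 genes at an unadjusted p under 0.05 (15.2% of all genes), and Ncl had the smallest adjusted p, with a log2 difference of 1.25 (edgeR adjusted p = 0.183; 0.0253 when only those groups were fitted). C5 adenomas were lower than B6 adenomas in 3 genes (8.26% of all genes were lower), and B6xPWD adenomas were lower in 1 gene (6.97% of all genes were lower). Polr1a had 56.0, 52.2 and 43.5 CPM in B6 adenomas, 35.7, 39.6 and 37.1 CPM in C5 adenomas and 34.8, 41.9 and 37.4 CPM in B6xPWD adenomas. All C5 and B6xPWD values lay below all B6 values, with log2 differences of -0.44 ± 0.15 (SE, edgeR adjusted p = 0.0361) in C5 and -0.42 ± 0.15 (SE, edgeR adjusted p = 0.0487) in B6xPWD. Noc2l had 61.6, 57.9 and 57.4 CPM in B6 and 33.5, 36.6 and 39.4 CPM in C5 adenomas (log2 difference -0.70 ± 0.24 SE, edgeR adjusted p = 0.0398). Nop56 had 27.3, 32.7 and 32.2 CPM in C5 adenomas, all below the B6 adenomas given above (log2 difference -0.58 ± 0.19 SE, edgeR adjusted p = 0.0365). These calls rested on nearly all of the libraries: in C5 adenomas, 0 of the 33 genes were called without any 1 library other than B6 replicate 3, and 2 without that one. The call of Polr1a in B6xPWD was lost without any 1 adenoma library other than B6 replicate 3, with adjusted p between 0.0548 and 0.196.

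Of the members on chromosome 5, the chromosome that the consomic strain takes from PWD/Ph, neither was called between C5 and B6 over the 3 tissues. Nop14 had 2.11, 5.75 and 5.67 CPM in the wild-type mucosa of B6 and 4.66, 4.18 and 4.696 CPM in that of C5. In adenomas it had 10.2, 6.08 and 11.9 CPM in B6 and 7.11, 9.41 and 7.16 CPM in C5, and the ranges overlapped in both tissues. Over the 3 tissues its log2 difference between C5 and B6 was -0.22 ± 0.17 (SE, edgeR adjusted p = 0.377). Noc4l, its partner in the small subunit processome, had 9.20, 11.8 and 9.63 CPM in the wild-type mucosa of B6 and 12.4, 11.1 and 13.2 CPM in that of C5 (log2 difference over the 3 tissues -0.12 ± 0.14 SE, edgeR adjusted p = 0.561). Of 836 chromosome 5 genes tested, 140 were higher (16.8%) and 132 lower (15.8%) in C5, where 10.3% and 8.35% of all genes were. The genes called in that mean of 3 tissues were Bop1 (-0.35 ± 0.12 SE, edgeR adjusted p = 0.0361), Noc2l (-0.40 ± 0.14 SE, edgeR adjusted p = 0.0423) and Nop58 (-0.33 ± 0.12 SE, edgeR adjusted p = 0.0428), 3 of 33, all lower. Without replicate 1 of B6 Min mucosa, replicate 2 of B6 wild-type mucosa, replicate 1 or 2 of C5 adenoma or replicate 2 of C5 Min mucosa none of the 33 was called.

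In organoids, most of the ribosome biogenesis factors fell with AZA and Dkc1 rose. Averaged over B6 and C5, 25 of the 33 genes fell (13.5% of all genes tested were lower), 1 rose (15.0% of all genes were higher) and 7 did not pass: Rrn3, Ubtf, Fbl, Nop14, Rrp12, Bop1 and Wdr12. The median log2 change was -0.75 for the 33 genes and 0.04 for all 13395 genes. The summed level was 7202 and 6393 CPM in the B6 controls and 4034 and 4387 CPM in the B6 organoids with AZA. In C5 it was 6312 and 7281 CPM in the controls and 3862 and 4675 CPM with AZA. All 4 treated libraries lay below all 4 controls for this sum. Gene by gene, all 4 AZA libraries were below all 4 controls for 19 of 33 genes (14.4% of all genes) and above them for 1, Dkc1 (15.2%).

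By role, 5 of 5 genes that act at several steps fell (median log2 change -0.74), 8 of 10 small subunit genes (-0.77), 5 of 7 large subunit genes (-0.61), 4 of 6 of the small nucleolar ribonucleoproteins (-0.84) and 3 of 5 RNA polymerase I genes (-0.89). Gnl3 had 247.7 and 223.1 CPM in the B6 controls and 119.8 and 122.5 CPM with AZA, and 235.8 and 287.3 CPM in the C5 controls and 117.2 and 113.7 CPM with AZA. The treated libraries were close to each other and far below the controls, and Gnl3 fell 2.10-fold (log2 change -1.07 ± 0.12 SE, edgeR adjusted p = 1.05e-05). Ddx10 had 219.1 and 186.8 CPM in the B6 controls and 98.8 and 100.7 CPM with AZA, and 160.7 and 192.9 CPM in the C5 controls and 73.0 and 91.3 CPM with AZA (log2 change -1.07 ± 0.13 SE, edgeR adjusted p = 2.99e-05). Ddx10 had the second smallest change of the small subunit genes in adenoma and the largest here.

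Polr1a had 103.7 and 105.7 CPM in the B6 controls and 47.3 and 45.2 CPM with AZA, and 108.9 and 117.4 CPM in the C5 controls and 47.1 and 63.1 CPM with AZA. No treated value came near a control, and its log2 change was -1.11 ± 0.15 (SE, edgeR adjusted p = 5.37e-05). Ncl had 1851 and 1515 CPM in the B6 controls and 714.4 and 838.5 CPM with AZA, and 1513 and 1407 CPM in the C5 controls and 670.7 and 961.4 CPM with AZA (log2 change -0.98 ± 0.13 SE, edgeR adjusted p = 5.59e-05). Ncl was thus among the clearest changes in organoids, where the treated and control values did not overlap. Rrn3 and Ubtf, the initiation factors of RNA polymerase I, did not pass, with log2 changes of -0.15 ± 0.17 and -0.32 ± 0.14 (SE). Fbl fell short of the test at -0.92 ± 0.57 (SE, edgeR adjusted p = 0.247), with 8.07 and 6.24 CPM in the B6 controls against 2.05 and 3.62 CPM, and overlapping values in C5.

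Dkc1 went the other way. It had 186.7 and 175.9 CPM in the B6 controls and 378.8 and 382.8 CPM with AZA, and 187.2 and 233.7 CPM in the C5 controls and 304.9 and 292.7 CPM with AZA. All treated libraries were above all controls, and Dkc1 rose 1.73-fold on average (log2 change 0.79 ± 0.12 SE, edgeR adjusted p = 1.32e-04). The rise was 2.10-fold in B6 (1.07 ± 0.16 SE, edgeR adjusted p = 4.13e-04), and the C5 value of 0.50 ± 0.16 (SE) did not pass (edgeR adjusted p = 0.0516). Dkc1 is the only X-linked gene of the 33, and over the 391 X-linked genes tested 54 were higher and 63 lower with AZA, with a median log2 change of -0.07.

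**Figure D5:**
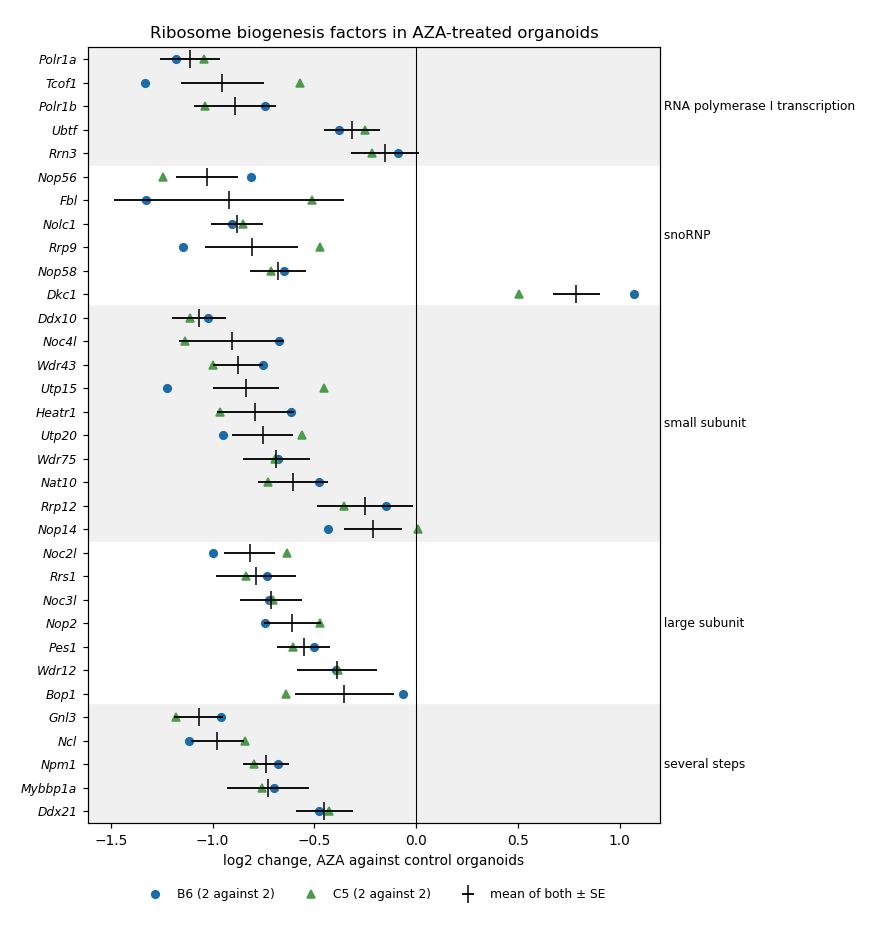
Fitted log2 change of each of the 33 genes with AZA against control organoids (horizontal axis), with coloured points for B6 and C5 cultures, a bar for their mean ± SE, and genes ordered by role. Most points lie left of 0, and Dkc1 stands apart at 1.07 in B6 and 0.50 in C5.

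By background, 16 genes fell and 1 rose with AZA in B6 (6.91% and 9.19% of all genes), 15 fell in C5 (6.49%), and 11 fell in both (3.98%). In B6 the smallest adjusted p-values after Dkc1 were those of Ncl (-1.12, edgeR adjusted p = 7.47e-04), Gnl3 (-0.96) and Polr1a (-1.18). In C5 they were those of Gnl3 (-1.18), Ddx10 (-1.11), Wdr43 (-1.0) and Nop56 (-1.25). The difference between the AZA effects of C5 and B6 passed for 0 of 33 genes (0.0% of all genes, 0 with DESeq2), with the smallest adjusted p, 0.999, for Noc2l (0.36). At an unadjusted p under 0.05 it gave 2 genes (4.55% of all genes). Control organoids of C5 and B6 differed in 0 genes (0.209% of all genes, 0 with DESeq2), and 1 gene had an unadjusted p under 0.05 (5.73% of all genes). That gene, which also had the smallest adjusted p, was Nop14 on chromosome 5, at 190.0 and 164.7 CPM in B6 and 90.9 and 119.1 CPM in C5 (log2 difference -0.75 ± 0.20 SE, edgeR adjusted p = 0.401). Without a filter on low counts the same Nop14 difference had an adjusted p of 0.0495. Of 831 chromosome 5 genes tested in this comparison, 10 were called higher and 8 lower, against 17 and 11 over all 13395 genes. In B6 and C5 taken alone, with 2 libraries a group, the B6 count fell from 17 to 10 without control replicate 1 and the C5 count from 15 to 9 without control replicate 4, the lone control then being assumed to vary like the other groups. When only the C5 organoids were fitted, 6 of the 33 genes passed, where 599 of 12472 genes were higher and 352 lower.

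The same RNA samples changed in other lists. Of the 124 other ribosome biogenesis genes 53 fell and 0 rose with AZA (median log2 change -0.44), and 39 of 77 ribosomal protein genes fell (median -0.65). Cell cycle genes fell in 19 of 20 cases, from sums of 4091 to 4992 CPM to sums of 1631 to 2397 CPM. Enterocyte markers rose in 19 of 19 cases, from 10250 to 22840 CPM to 46620 to 64880 CPM, and Paneth cell markers rose in 8 of 8 cases, from 948.7 to 1452 CPM to 3953 to 7372 CPM. Goblet cell markers rose in 7 of 8 cases, from 2975 to 3434 CPM to 3815 to 5800 CPM. Of 8 proximal intestine markers 4 rose and 1 fell, with sums of 1597 to 3502 CPM in controls and 4549 to 6716 CPM with AZA. The share of reads assigned to no gene was 46.4 to 55.3% in controls and 55.2 to 63.5% with AZA. Epithelial markers stood at 5006 to 5222 CPM in controls and 5243 to 5891 CPM with AZA, while smooth muscle markers summed to at most 23.3 CPM, with 4 of the 10 at 0 in the B6 controls. Myc had 18.9 and 19.6 CPM in the B6 controls and 8.03 and 17.8 CPM with AZA, and 15.5 and 26.1 CPM in the C5 controls and 5.20 and 8.43 CPM with AZA (log2 change -1.10 ± 0.33 SE, edgeR adjusted p = 0.0226). In the Myc network Mycl also fell (-1.61) and Mxd1 rose (0.79), with sums of 261.2 to 329.8 CPM in controls and 303.9 to 378.4 CPM with AZA. Rn45s, whose counts may hold precursor and mature RNA, did not pass (log2 change 0.24 ± 0.17 SE, edgeR adjusted p = 0.318). The part of cell type, cell division and unassigned reads in the fall of the 33 genes was not tested.

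Among the small nucleolar RNA genes inside the 33 genes, 4 were tested in organoids and 1 fell, Snord82, which lies in an intron of Ncl. It was named after its value was seen. Its log2 change with AZA was -1.60 (edgeR adjusted p = 0.0263), and its host Ncl fell as given above. The sequence is shown because the host and its intronic RNA both carry reads here. It is read 5′ to 3′ on the minus strand at chr1:86356261-86356330 of GRCm38, by the GENCODE M21 annotation, with box C (TGATGA) and box D (CTGA) in capitals.
Snord82: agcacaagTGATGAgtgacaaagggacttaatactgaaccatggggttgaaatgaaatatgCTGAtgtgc
Box C begins at base 9 and box D at base 62 of its 70 bases. The libraries were made from inserts of 80 to 130 bases, longer than this RNA, and reads of the small RNA and of the host intron cannot be told apart.

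Most genes that rose in adenoma fell with AZA. Of the 31 genes higher in adenoma and the 25 lower with AZA, 24 were shared, which is 77.4% of the first and 96.0% of the second. Over the 12062 genes tested in both experiments 2866 were higher in adenoma and 1792 lower with AZA, and 736 were shared, 25.7% of the first and 41.1% of the second. With 31 and 25 of the 33 genes called, a large overlap was fixed by these counts, so it shows no link gene by gene. Across the 33 genes, Spearman's rho between the adenoma and AZA changes was -0.36, given as a description. The exceptions were Ncl, which fell with AZA but did not pass in adenoma, and the genes that rose in adenoma and were not called lower with AZA, namely Rrn3, Fbl, Nop14, Rrp12, Bop1 and Wdr12, which did not pass, and Dkc1, which rose.

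Control organoids, which grow as epithelium without stroma, had far higher levels of these factors than Min mucosa of the same B6 and C5 backgrounds. In a fit over all 47 libraries 30 of the 33 genes were higher (32.8% of 15202 genes were higher), 1 was lower (41.0% were lower) and Noc4l and Fbl did not pass. The median log2 difference was 1.69 for the 33 genes and -0.18 for all genes. Nop58 had 46.2, 32.5 and 29.1 CPM in B6 and 25.7, 30.9 and 30.5 CPM in C5 Min mucosa, and 390.6 and 367.3 CPM in B6 and 364.0 and 415.0 CPM in C5 organoids, scaled over all libraries. The organoid values were several times the highest tissue value, and Nop58 was 11.9-fold higher (log2 difference 3.57 ± 0.16 SE, edgeR adjusted p = 2.03e-20). The log2 differences of Ncl (3.85), Wdr43 (3.71), Npm1 (3.58), Nop14 (3.54) and Gnl3 (3.12) were of similar size, and Ubtf stood at 0.67, Heatr1 at 0.55.

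Bop1 was the exception among the PeBoW genes. It had 63.4, 40.5 and 41.7 CPM in B6 and 26.6, 33.9 and 39.4 CPM in C5 Min mucosa, and 11.3 and 15.9 CPM in B6 and 13.1 and 21.5 CPM in C5 organoids. Every organoid value was below every Min mucosa value, and Bop1 was lower by a log2 difference of -1.39 ± 0.18 (SE, edgeR adjusted p = 9.88e-09), while its partners Wdr12 and Pes1 were higher by 2.43 and 1.32. The organoid difference varied with the GC content of the transcripts: over the 33 genes Spearman's rho was -0.68, and over 14518 genes it was -0.32, given as a description across genes, which are not independent replicates. Wdr12 (40.4% GC), Nop58 (41.0%) and Npm1 (42.4%) had the lowest GC content and Tcof1 (58.2%), Bop1 (58.3%) and Rrp9 (59.9%) the highest. The same measure was 0.26 over the 33 genes in adenoma and -0.04 with AZA. Tissue and organoids also differed in Rn45s (log2 difference -6.29), in smooth muscle, fibroblast and endothelial markers (all 10, 8 and 6 lower in organoids), in immune markers (11 of 13 lower) and in cell cycle genes (18 of 20 higher), while Myc was lower in organoids (-1.0). The part of these in the differences of the 33 genes was not tested.

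Within groups, the 33 genes tended to move together from library to library. After the group means were removed, the median Pearson correlation between pairs of the 33 was 0.13 over the 39 tissue libraries, with 71.6% of pairs above 0, and 0.40 over the 8 organoid libraries, with 76.5% above 0. The median over pairs of all genes was 0.00 in both. With 2 libraries in each of the 4 organoid groups, the residuals of a group mirror each other. Each organoid correlation therefore rests on 4 independent values. These correlations are a description, since libraries share depth and composition across all genes. The median SD within groups was 0.28 (log2) in tissue and 0.23 in organoids for the 33 genes, and 0.36 in both for all genes.

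Some of these genes share sequence with other features. By the annotation, 6 have pseudogenes of at least 95% identity over at least 100 bases: Nop56 has 6 such copies, Npm1 4, Wdr12 3, Pes1 2, and Nop58 and Ddx21 1 each. Exons of 10 of the 33 genes overlap another counted gene, among them Noc2l, which shares 598 bases with Samd11 on the opposite strand. The strand setting of the counting is not given in the sources used here, so reads of such pairs cannot be told apart, and the values of these genes are less certain.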

How the data were processed

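Ribosomal RNA was depleted with RiboMinus from total RNA, fragments of 150 to 200 bases were selected, and an Illumina Genome Analyser IIx gave single-end reads, per the labels' protocols. The authors deposited raw read counts per gene symbol. Alignment used BWA with the mm10 genome and counting used HTSeq, per the submitters' processing notes; versions, gene annotation and strand setting are not given in the sources used here. HTSeq's 5 summary categories held 40.7 to 53.9% of the total in tissue and 46.4 to 63.5% in organoids and were left out. Depth per library and its range are given in the report.

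Tissue, organoids and all 47 libraries were each fitted over all groups with edgeR 4.0.16 (R 4.3.3, limma 3.58.1): TMM scaling, filterByExpr by group (minimum count 10, minimum total 15), the quasi-likelihood test, and Benjamini-Hochberg adjustment over 13657, 13395 and 15202 genes, with calls at an adjusted p under 0.05. The procedure was tested on simulated counts. CPM are counts scaled by TMM-adjusted library totals. Same-numbered adenoma and Min mucosa libraries deviated together in all 12 pairs (correlation of residuals 0.107 to 0.455). The residuals are taken from group means, so these correlations are not independent of each other. The labels state no pairing, so the main fits had no replicate block, and the block served as an alternative. No library was a copy of another (lowest chi-square per degree of freedom 7.62 over 43 pairs). DESeq2 1.42.0 and other settings served as alternatives. The genes, the lists and the rules for naming genes were chosen with earlier results of these data known. Values are given for the genes with the largest and smallest adenoma change of each role, for at most 4 called genes with the smallest adjusted p elsewhere (or the smallest adjusted p where none was called), for chromosome 5 genes, Myc and Rn45s, and for the extremes of each other list. GC content and overlaps come from GENCODE M21 (GRCm38).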

Additional observations from a re-analysis of the deposited data

How the results depend on the processing

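Of 1073 recomputed values of 64 single-gene results, 923 kept direction and side of the threshold, 139 lost the call, 11 gained one and none reversed. The call counts of adenoma against Min mucosa over 4 backgrounds (30 to 33), of AZA over both backgrounds (26 to 27) and of organoids against Min mucosa (31) held under every setting that kept all libraries. Totals without Rn45s raised the median of all genes in adenoma from 0.01 to 0.21 (log2), and the excess of the 33 genes over it stayed at 0.63 to 0.64; the share of rises among all calls went from 52.5% to 75.2% in adenoma, from 52.5% to 42.5% with AZA and from 53.1% to 24.2% in PWD. Under those totals the calls were 25 in B6, 29 in C5F1 and 26 in B6xPWD adenoma, 1 and 10 in B6xPWD and PWD wild-type mucosa, 8 and 4 in C5 and B6xPWD adenomas against B6, and 7 in C5 over 3 tissues. Of 13564 genes, 2747, 2864 and 1928 were then higher in the adenomas of B6, C5F1 and B6xPWD. In the strain comparisons, in the order given, 405, 749, 640, 699 and 755 were higher and 796, 2351, 2151, 1684 and 1925 lower. C5 adenoma calls were 1 with RLE size factors, 1 without a filter, 4 with the replicate block and 6 when that block was fitted to adenoma and Min mucosa without wild type, a fit chosen after seeing the data. In the same order, 344 of 13657, 337 of 19873, 387 of 13657 and 515 of 13444 genes were higher. Without a filter, 0 were called in C5 or B6xPWD adenomas against B6 or in C5 over 3 tissues, and 1 in C5 against B6 control organoids. Of 19873 genes, 1112, 1192 and 1204 were then higher and 991, 884 and 962 lower in the first 3. In the organoids 64 of 21045 genes were higher and 52 lower. With only the groups compared, calls were 5 in B6xPWD adenoma, where 372 of 11615 genes were higher and 327 lower. They were 0 in wild-type mucosa of B6xPWD (166 of 11327 genes higher, 185 lower) and PWD (557 of 11272 higher, 477 lower), with Fbl not tested in PWD. Against B6 adenomas they were 2 in C5F1 (330 of 12616 genes higher, 404 lower) and 0 in B6xPWD (435 of 11984 higher, 369 lower). With AZA in C5 they were 6, where 599 of 12472 genes were higher and 352 lower. The replicate block gave 0 in B6xPWD adenomas against B6 and changed the call of Ncl and Nat10 as given above. Same-numbered libraries of other groups and of the organoids did not deviate together throughout. Without 1 library the calls were 30 to 31 in adenoma over 4 backgrounds, 12 to 18 in B6, 9 to 18 in C5F1, 0 to 1 in C5 and 8 to 21 in B6xPWD; 0 to 1, 0 to 2, 0 to 2 and 0 to 4 in wild-type mucosa of C5F1, C5, B6xPWD and PWD; 0 to 2 and 0 to 1 in C5 and B6xPWD adenomas against B6; 0 to 4 in C5 over 3 tissues; 10 to 14, 9 to 17 and 23 to 27 with AZA in B6, C5 and both; and 31 in organoids against Min mucosa. Depth limits the values of Fbl, with as few as 2 counts in a library.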

Other observations

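Ribosomal protein genes, which encode the ribosome's own components, were also measured between strains. In C5 against B6 over the 3 tissues, 25 of 62 ribosomal protein genes were lower and 2 higher (median log2 difference -0.42), while 3 of the 33 biogenesis factors were lower (median -0.05) and 18 of 124 other biogenesis genes were lower and 3 higher (median -0.13). In PWD against B6 wild-type mucosa, 20 ribosomal protein genes were lower and 4 higher (median -0.59), and the 33 factors had a median of -0.18. In adenoma against Min mucosa the medians were 0.25 for ribosomal protein genes and 0.65 for the 33 factors. The difference between the lists was not tested.

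In organoids against Min mucosa the other biogenesis genes also stood higher, 105 of 124 with 7 lower (median log2 difference 1.52), and 58 of 77 ribosomal protein genes were higher with 5 lower (median 1.86).

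Within tissue groups, Mybbp1a (mean correlation with the other 32 genes 0.24), Ddx21 (0.23) and Noc4l (0.23) moved most with the rest from library to library, and Ddx10 (-0.09) and Utp15 (0.00) least. In organoids Ddx21 (0.56), Heatr1 (0.56) and Ddx10 (0.56) moved most with the rest, and Utp15 (-0.36), Polr1b (-0.30) and Wdr75 (-0.21) moved against it. These are descriptions over 39 and 8 libraries, and the genes were named after their values were seen. The 8 organoid libraries give only 4 independent values per gene once the group means are removed.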
